A study of Mus musculus with 18 samples.

Results

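Nsd1, Nsd2, Nsd3, Ash1l and Setd2, genes for the methyltransferases of lysine 36 of histone H3 (H3K36), were followed in peak lists from ChIP-seq with antibodies to KDM2A and to dimethylated H3K36 (H3K36me2). The genes were chosen by name, and these 5 were taken by symbol from the 21938 protein-coding genes (55450 genes of all kinds) of GENCODE M21 on GRCm38. At each gene, peaks were scored within 2 kb of any transcription start site (TSS) and over the gene body. The study asked how loss of the microRNA miR-155 alters KDM2A binding and H3K36me2 in B cells at low oxygen.

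The cells were splenic B cells of C57BL/6 mice, either miR-155-sufficient (WT) or Mir155-deficient (KO), enriched by removing cells that carry CD43, CD4 or Ter119. All cultures of both genotypes had been stimulated for 2 days with anti-CD40 (1 µg/ml), with an F(ab')2 fragment against IgM (5 µg/ml) and with IL-4 (4 ng/ml) at 1% O2 and 5% CO2, and were fixed with EGS and then 1% formaldehyde. Each genotype had 3 libraries for KDM2A, 3 for H3K36me2 and 3 inputs, 18 samples in all, of which the 12 peak lists were analysed. Replicate 1 was male and replicates 2 and 3 were female in every group, so sex and replicate number cannot be told apart. Mir155 was missing from every cell of the KO mice, not from B cells alone, and no group was cultured at normal oxygen. The mice of the study were 6 to 25 weeks old, with no age given for each mouse.

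Methylation of H3K36 is laid down by enzymes with different products. NSD1, NSD2 and NSD3 are SET-domain enzymes of the nuclear receptor-binding SET domain family and make mono- and dimethylated H3K36, ASH1L is a SET-domain enzyme that makes the dimethylated form mostly at active genes, and SETD2 travels with elongating RNA polymerase II and makes the trimethylated form. NSD2 is well known from B-lineage disease, where its overexpression raises H3K36me2 in myeloma. KDM2A works in the opposite direction: it removes mono- and dimethyl groups from H3K36 and binds unmethylated CpG-rich DNA through its CXXC zinc finger.

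The lists differed in length between libraries. KDM2A lists held between 23372 and 29105 peaks in WT and between 15387 and 21705 in KO, and covered 0.770 to 1.11% of the genome in WT and 0.433 to 0.715% in KO. H3K36me2 peaks covered 4.17 to 5.32% of the genome in WT and 1.44 to 3.63% in KO. The H3K36me2 list of KO replicate 1, a male library, stood apart with 106720 peaks against 37447 and 45180 in the other KO lists. Read counts do not come with the lists, library depth is therefore unknown, and whether it moves with these lengths was not tested. Of 7 B cell marker genes, 5 had a KDM2A promoter peak in all 6 libraries, beside 26.4% of all coding genes, and none of 5 T cell, 4 myeloid and 3 erythroid markers did. H3K36me2 went the other way. Among markers covered in at least 2 libraries, the median WT gene coverage was 9.01% for 6 B cell, 34.0% for 2 T cell, 20.7% for 3 myeloid and 10.4% for 1 erythroid genes. The peaks are therefore no measure of cell purity.

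KDM2A occupied a single shared place at each gene, at or near the first (5′-most) TSS. Peaks that overlapped between libraries were merged, which gave 18 KDM2A intervals at the 5 genes. Of these, 5 were called in all 6 libraries, 1 at each gene, and each of these merged intervals spanned the first TSS. The single peaks within them did not all reach it: at Nsd1 they began 0.325, 0.338, 0.578 and 1.56 kb after the TSS in 4 of the 6 libraries. With a −log10 q of at least 2, Nsd2 no longer had a promoter peak in all 6 libraries. The other 13 intervals were each called in 1 library only, 11 of them in a WT and 2 in a KO library. Of the 47958 KDM2A intervals called in 1 library over the whole genome, 67.6% were in a WT and 32.4% in a KO library. Across protein-coding genes, 5786 (26.4%) had a KDM2A peak within 2 kb of a TSS in all 6 libraries.

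Nsd1 spans chr13:55209782-55318325 on the plus strand (ENSMUSG00000021488.8), and its shared KDM2A interval, chr13:55209376-55213147, was centred in an intron 1.48 kb after the first of 9 TSS positions. Nsd2 spans chr5:33820725-33897975 (ENSMUSG00000057406.16, 12 TSS) and overlaps the coding gene Nelfa, and its shared interval at chr5:33819798-33821583 straddled the first TSS. Nsd3 spans chr8:25601601-25719667 (ENSMUSG00000054823.16, 8 TSS), with its shared interval at chr8:25601143-25603304. The longest of the genes was Ash1l, at chr3:88950622-89079375 (ENSMUSG00000028053.13, 4 TSS). Its shared interval, chr3:88949543-88951367, also covers the promoter of Dap3, a mitochondrial ribosomal protein gene that starts 208 bp away in the opposite direction, so a peak there cannot be assigned to either gene. Setd2 spans chr9:110532597-110618633 (ENSMUSG00000044791.16, 10 TSS), and its shared interval at chr9:110531302-110533979 was centred in a UTR exon 44 bp from the first TSS. All 5 genes lie on the plus strand.

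**Figure D1:**
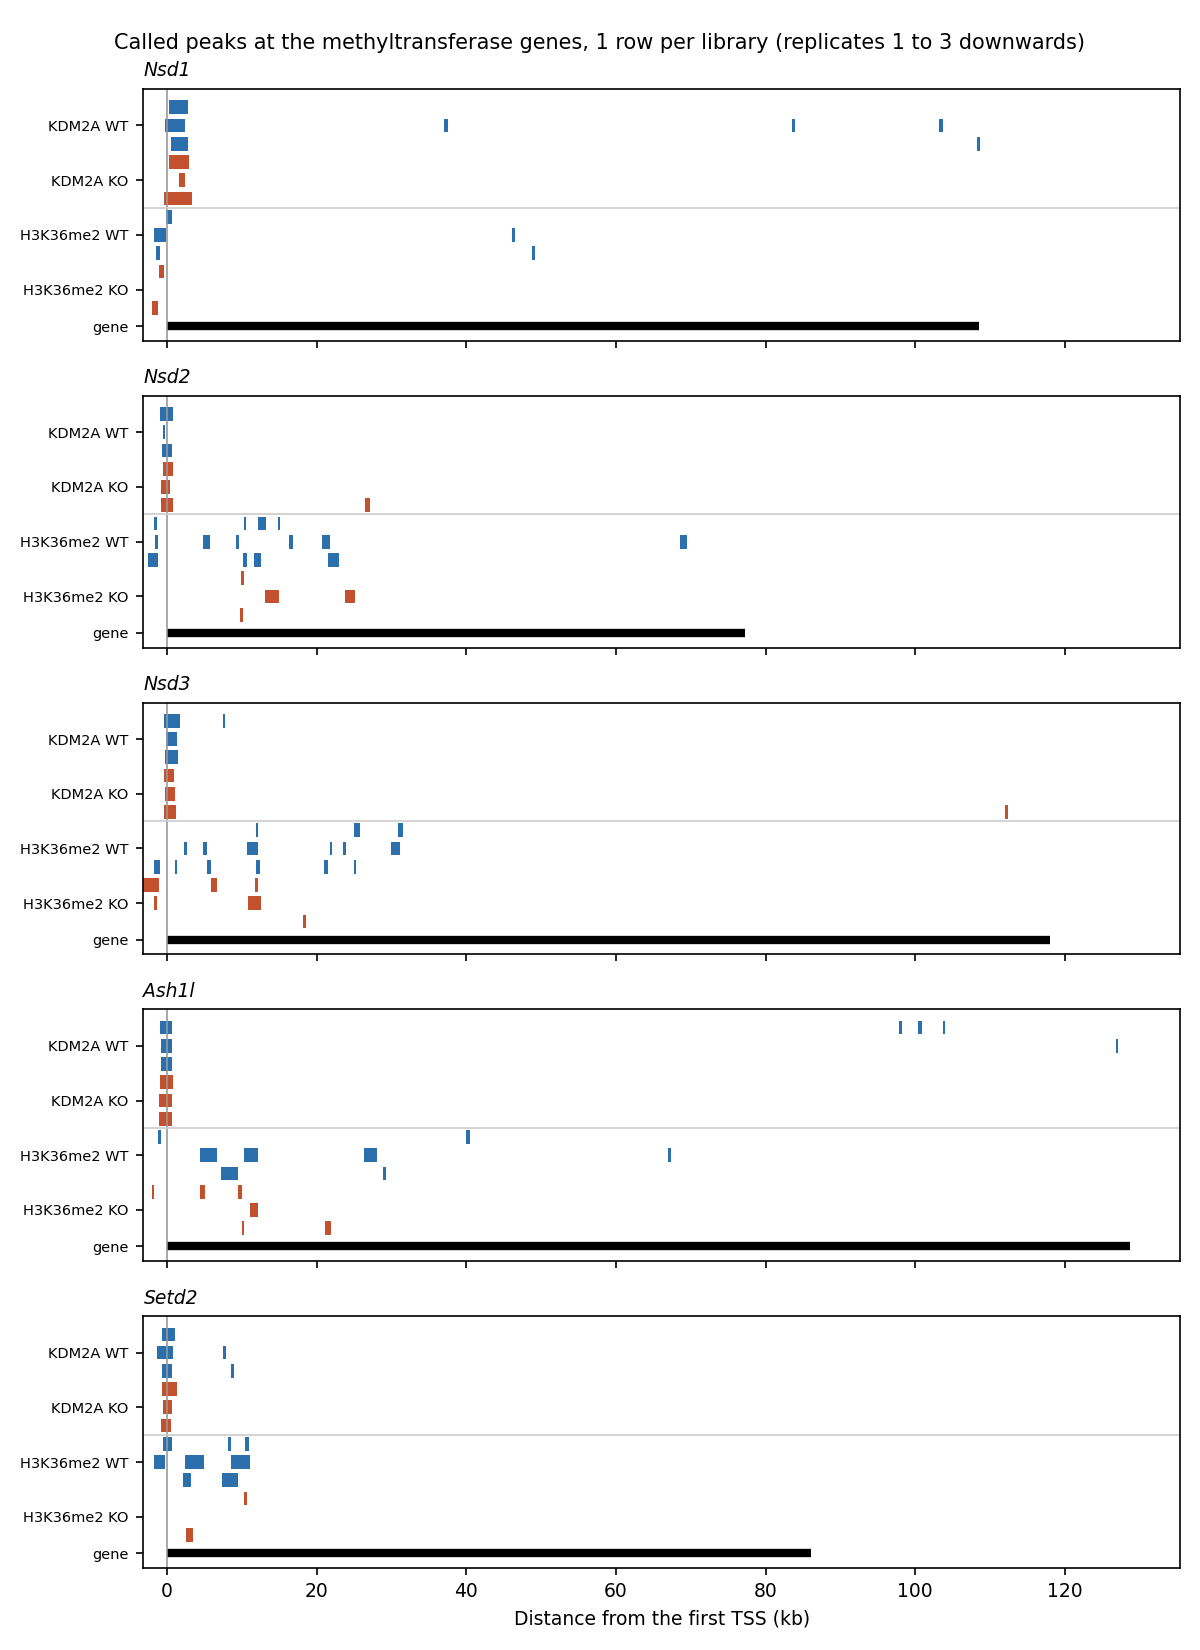
Each panel shows one gene as a black bar, with called peaks as coloured blocks at their distance in kb from the first TSS (grey line), 1 row per library, WT in blue and KO in orange. KDM2A blocks lie at or close to the first TSS in all 6 libraries at every gene, while H3K36me2 blocks lie scattered over the 5′ portion and none falls at one place in all 6 libraries.

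The promoter of Setd2 gives an example of CpG-rich DNA within a shared KDM2A interval. Of the 5 genes, 1 matched the RefSeq promoter table (GRCm38.p6). The 250 bases before the first TSS, chr9:110532347-110532596 on the plus strand, are printed with each CG in capitals:

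Setd2: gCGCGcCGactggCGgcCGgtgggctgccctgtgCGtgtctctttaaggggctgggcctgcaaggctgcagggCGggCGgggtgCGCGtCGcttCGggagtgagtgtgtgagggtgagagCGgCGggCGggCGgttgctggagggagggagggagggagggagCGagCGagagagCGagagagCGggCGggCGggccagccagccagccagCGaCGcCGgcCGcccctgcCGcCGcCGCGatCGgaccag

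The motif searched was CG, which reads the same on both strands. It occurred 31 times in these 250 bases, which are 76% G and C. The median over the same 250 bases of 32851 promoters in the table was 6, and 5.19% of them held as many, while 92.1% held at least 1. This stretch lay inside the shared KDM2A interval of Setd2. The interval as a whole was less rich, with 57.2% G and C and 6.98 CG per 100 bp.

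The same property separated the shared from the scattered KDM2A intervals at all 5 genes. CpG content was measured on the GRCm38.p6 sequence of each interval as the observed over expected ratio, in which 1 means as many CpG as the C and G content alone would give. The ratio was 0.705 at Nsd1, 0.779 at Nsd3, 0.832 at Ash1l, 0.857 at Setd2 and 1.05 at Nsd2. The 13 intervals called in 1 library had ratios from 0.0335 to 0.453, so the lowest shared interval stood above the highest scattered one. Over the whole KDM2A data the median ratio was 0.635 for 5247 intervals called in all 6 libraries and 0.190 for 47958 intervals called in 1 library. Nsd2 was extreme even among the shared ones, with a higher ratio than 99.8% of them and 14.3 CpG per 100 bp. Intervals in 1 library were also narrower over the whole data, with a median of 411 bp against 2296 bp, and the part of width in the ratio was not tested.

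**Figure D2:**
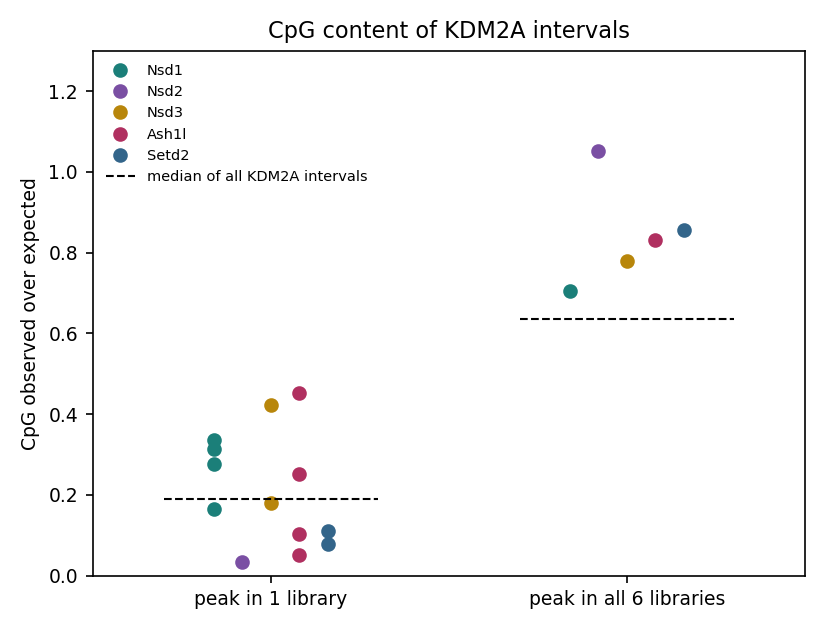
Points are the 18 merged KDM2A intervals at the 5 genes, by the number of libraries in which they were called (x axis) and their CpG observed over expected ratio (y axis); dashed lines are medians over all KDM2A intervals of the genome. The 5 shared intervals lie between 0.705 and 1.05 and the 13 others at or below 0.453.

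The first comparison asked whether KDM2A at these promoters differed in strength between genotypes. The measure was the highest fold of any peak within 2 kb of a TSS, where fold is the peak's signal over the local control background as the authors' peak caller gave it. At Nsd1 the fold was 3.18, 3.01 and 3.24 in WT replicates 1 to 3 and 2.94, 2.97 and 3.08 in KO. The Nsd1 ranges met, with KO replicate 3 above WT replicate 2. At Nsd2 it was 2.93, 3.37 and 2.79 in WT libraries and 3.27, 2.66 and 2.85 in KO, with the highest library in WT and the lowest in KO. At Nsd3 it was 3.21, 3.90 and 3.30 in WT libraries and 3.38, 3.65 and 3.16 in KO. The WT values of Nsd3 enclosed nearly the whole KO range. At Ash1l it was 3.11, 3.96 and 3.69 in WT libraries and 3.35, 3.64 and 3.89 in KO, so that all 3 KO libraries lay inside the WT range. At Setd2 it was 2.90, 3.01 and 3.11 in WT libraries and 3.47, 2.93 and 2.95 in KO. Setd2 thus had 1 high KO library, the male one, and 2 KO libraries inside the WT range.

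**Figure D3:**
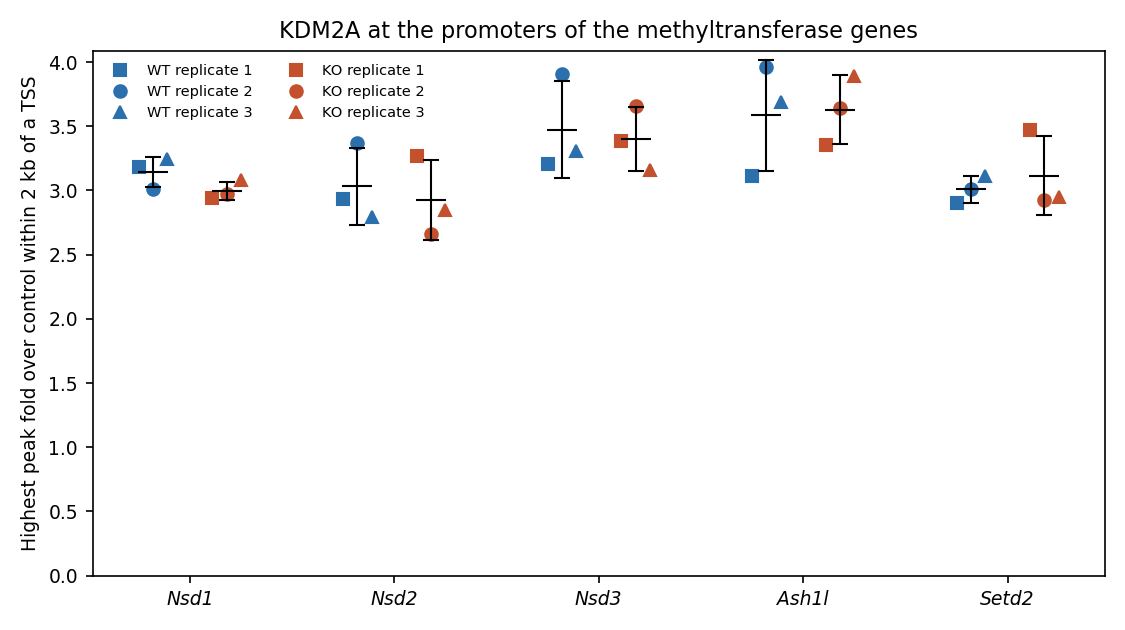
Points are the highest KDM2A peak fold (y axis, ratio over control, from 0) within 2 kb of any TSS of each gene (x axis) in each library, WT in blue and KO in orange, with black bars for the mean and SD (n = 3). The 30 values lie between 2.66 and 3.96, and the WT and KO points overlap at each of the 5 genes.

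None of the 5 genes changed in this test. After each library was centred on its own median, the log2 difference KO minus WT was −0.01 for Nsd1, 0.01 for Nsd2, 0.03 for Nsd3, 0.08 for Ash1l and 0.11 for Setd2, with standard errors of 0.11 to 0.13 (limma, Benjamini-Hochberg adjusted p from 0.949 to 1.00 over 5786 genes). The signs of Nsd1, Nsd2 and Nsd3 turned under other scalings or without a library, and those of Ash1l and Setd2 were kept in the alternatives run, although their size rested on single libraries: Ash1l stood at 0.0099 without WT replicate 1 and Setd2 at 0.032 without KO replicate 1. limma called 0 of the 5786 genes (0%), of which 299 had an unadjusted p under 0.05. In the background, all KO libraries lay below all WT libraries in 5.17% of genes and above them in 5.2%, and 0 of the 5 genes showed either pattern. The median change of the 5 was 0.03, beside 0.00 for all genes tested. Within sexes the centred log2 difference at Nsd2, Nsd3, Ash1l and Setd2 was 0.16, 0.08, 0.11 and 0.26 in the male pair and −0.06, 0.01, 0.07 and 0.03 in the female mean, and at Nsd1 −0.11 and 0.04. On the fold as deposited, without centring, the same 4 genes were positive in the male pair (0.337, 0.176, 0.239 and 0.567) and negative in the female mean (−0.326, −0.199, −0.057 and −0.124), so that the sign of the female mean at Nsd3, Ash1l and Setd2 depended on the scale.

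The order of the genes was alike in both genotypes at the top. In WT the mean fold ran from Ash1l (3.59 ± 0.432, SD, n = 3) through Nsd3, Nsd1 and Nsd2 to Setd2 (3.01 ± 0.104), and in KO Ash1l (3.63 ± 0.269) and Nsd3 were again first and Nsd2 (2.93 ± 0.313) last. No neighbours in either order had ranges that stood clear of each other. The median WT mean over coding genes with a peak in all 6 libraries was 3.19, so these promoters lay around the middle of bound promoters.

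Peak extent at the first TSS varied widely at some genes and little at Ash1l. At Nsd1 the peak nearest the first TSS was 2523, 2564 and 2295 bp wide in WT libraries and 2638, 827 and 3772 bp in KO. The narrowest and the widest Nsd1 peaks were thus both in KO. At Nsd2 it was 1786, 241 and 1442 bp in WT libraries and 1343, 1199 and 1568 bp in KO, and the 241 bp peak of WT replicate 2 ended before the gene began. Ash1l had the tightest values: its peak was 1540, 1510 and 1478 bp wide in WT libraries and 1661, 1659 and 1793 bp in KO, every KO library being wider than every WT library. As coverage of the 2 kb on each side of the first TSS, WT libraries had 37.7% ± 0.775 and KO libraries 42.6% ± 1.92 (SD, n = 3), a difference of 4.87 percentage points (SE 9.24, limma adjusted p = 0.909). That pattern, all KO above all WT, held for 1 of the 5 genes and for 1.39% of 10768 coding genes tested, and was looked for after the widths had been seen. Over all genes the median change was −4.96 percentage points, and the Ash1l interval is shared with Dap3. At Nsd3 the widths were 2151, 1451 and 1774 bp in WT and 1391, 1311 and 1597 bp in KO, and at Setd2 1683, 2050 and 1241 bp in WT and 2017, 1101 and 1424 bp in KO, with overlapping ranges at both genes.

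Over whole gene bodies KDM2A covered little. At Nsd1 the share of the gene under peaks was 2.32, 3.41 and 2.35% in WT libraries and 2.43, 0.762 and 3.10% in KO, a difference of −0.60 percentage points. At Nsd2 it was 1.11, 0 and 0.935% in WT libraries and 1.04, 0.501 and 1.91% in KO, a difference of 0.47 that shrank to 0.089 without KO replicate 3 and to 0.126 without WT replicate 2. The zero of Nsd2 is the library whose peak ended upstream of the gene. Ash1l had 1.49, 0.737 and 0.489% in WT and 0.579, 0.494 and 0.555% in KO, where WT replicate 1 held 3 further peaks towards the 3′ end. The means of Nsd3 were 1.37% ± 0.310 in WT and 0.991% ± 0.234 in KO, and those of Setd2 1.12% ± 0.0886 and 1.00% ± 0.524 (SD, n = 3). None of the 5 passed the test (limma adjusted p from 0.652 to 0.925) and in 0 of 5 did the groups stand apart. For all 12633 genes tested limma called 0 (0%, with 1068 at an unadjusted p under 0.05), all KO libraries lay below all WT libraries in 15% and above in 1.18%, and the median change was −0.79 percentage points against −0.36 for the 5 genes. Relative to the genome-wide coverage of the same library, the differences of Nsd1, Nsd3, Ash1l and Setd2 turned positive (0.61, 0.35, 0.08 and 0.72 in units of that ratio) and that of Nsd2 was 1.29, with the median of all genes at 0.08. On that scale all KO libraries lay above all WT libraries at 2 of the 5 genes, Nsd2 and Nsd3, beside 7.4% of the 12633 genes, and below them at 0, beside 5.41%, and no gene of the 5 passed the test.

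H3K36me2 was arranged differently. Merging gave 40 H3K36me2 intervals at the 5 genes, of which none was called in all 6 libraries and 23 were called in 1. Of the 40, 25 held no KO peak and 6 no WT peak, and 34 had their centre in an intron. Over the whole genome, 44.7% of 179626 H3K36me2 intervals held no KO peak and 23.5% no WT peak. Within the genes, most lay after the KDM2A site and 5′ of the gene's middle. In each of WT replicates 1 and 3 and the 3 KO libraries, 100% of the H3K36me2-covered bases in these genes lay 5′ of the gene's midpoint, and in WT replicate 2 93.5% did, with single peaks beyond the midpoint in Nsd2 and Ash1l. Over all coding genes that share was 57.2 to 61.6% in the same libraries. High shares were not particular to the 5 genes, but they did not hold for every list described further on. The share was 73.8 to 100% over the demethylase genes, 87.8 to 100% over the partner genes and 42.5 to 83.8% over the other SET genes. The partner and other SET genes had no covered base in KO replicate 3. None of these sets was matched to the 5 genes for length. These are lengths under peaks summed over 5 genes and described without a test.

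The merged H3K36me2 intervals with peaks from the most libraries lay inside the gene at Nsd3 and Setd2 and upstream of it at Nsd1. Merging can chain peaks that do not all meet one another. At Nsd3 the interval chr8:25612298-25614227, in an intron 11.7 kb after the first TSS, was called in 5 libraries (3 WT and 2 KO), more than any other H3K36me2 interval of the 5 genes. At Setd2 the merged intron interval chr9:110539938-110543692, centred 9.22 kb from the TSS, held peaks of all 3 WT libraries and 1 KO library. It was such a chain: the peak of WT replicate 3 lay at 7.34 to 9.48 kb and that of KO replicate 1 at 10.3 to 10.5 kb. Nsd2 had 2 intervals in 3 libraries, of which 1 lay just upstream of the gene and the other, chr5:33832378-33835725, in an intron, with peaks of 2 WT and 1 KO libraries. The intron interval was also a chain, with the peak of WT replicate 3 ending at 12.6 kb and that of KO replicate 2 starting at 13.1 kb. Ash1l, where the pattern was most scattered, had no H3K36me2 interval in more than 2 libraries, and 8 of its 11 were in 1 library. Within the gene and its TSS windows, Nsd1 had its only repeated interval upstream of the gene, at chr13:55207724-55209651, with peaks of 2 WT and 2 KO libraries. Those peaks formed a chain, with KO replicate 3 ending at −1.18 kb and KO replicate 1 starting at −1.10 kb. Beyond these windows, chr13:55200788-55204214 held peaks of 3 WT libraries and 1 KO library.

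The next comparison asked how much of each gene lay under H3K36me2 in WT and KO. Nsd1 was nearly bare, with 0.623, 0.296 and 0.272% of the gene covered in WT and 0% in each KO library. All Nsd1 signal therefore came from 1 short peak in each WT library. Nsd2 had 2.10, 5.05 and 3.77% in WT and 0.269, 4.04 and 0.480% in KO. KO replicate 2 of Nsd2 reached the WT range and the other KO libraries fell short of it. Nsd3 had 1.57, 3.65 and 1.98% in WT and 1.06, 1.56 and 0.196% in KO, with KO replicate 2 just under WT replicate 1. Ash1l had 0.345, 4.65 and 2.03% in WT and 0.926, 0.777 and 0.814% in KO. Its KO values were close together while its WT values held both the lowest and the highest of the 6. Setd2 had 1.91, 5.95 and 3.64% in WT and 0.217, 0 and 1.196% in KO, and all 3 KO libraries were lower than all 3 WT libraries.

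**Figure D4:**
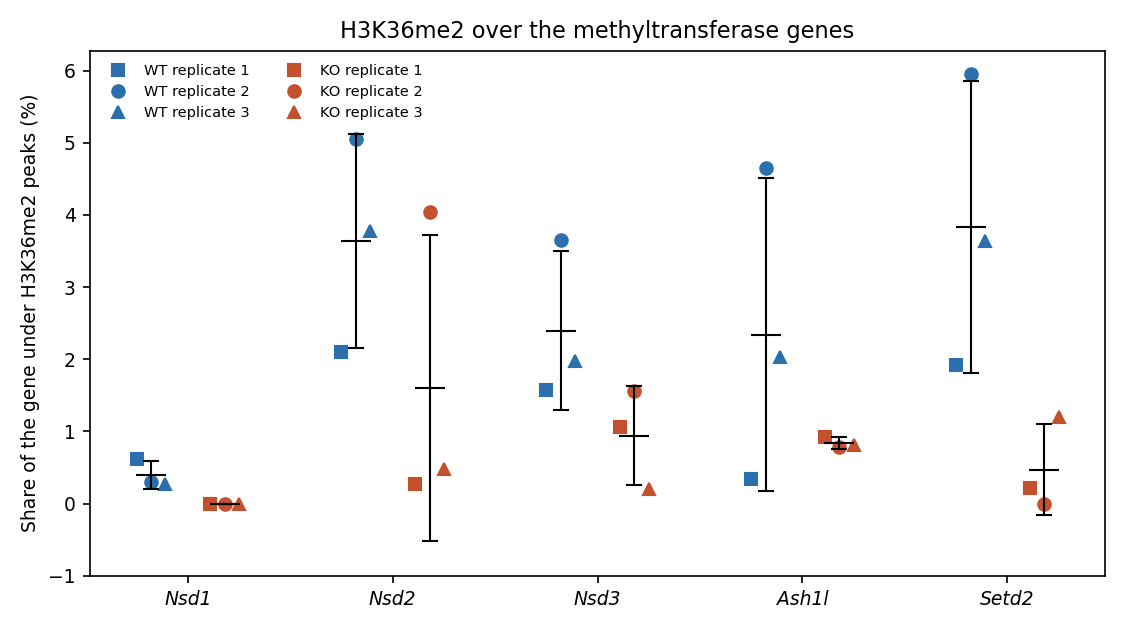
Points are the percent of each gene (x axis) under H3K36me2 peaks (y axis) in each library, WT in blue and KO in orange, squares for the male replicate 1, with black bars for the mean and SD (n = 3), which can reach below 0 although no value does. KO points lie below all WT points at Nsd1, Nsd3 and Setd2 and mingle with them at Nsd2 and Ash1l; the direction of Nsd3 and Setd2 turned when an equal number of the strongest peaks was taken from each list.

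Mean coverage was lower in KO than in WT at all 5 genes with all deposited peaks, but no gene passed the test. The largest difference was at Setd2, 3.84% ± 2.03 in WT and 0.471% ± 0.637 in KO (SD, n = 3), a change of −3.37 percentage points (SE 1.31, unadjusted p = 0.0334, limma adjusted p = 0.239). Nsd2 changed by −2.04, Ash1l by −1.50, Nsd3 by −1.46 and Nsd1 by −0.40 percentage points, with adjusted p from 0.318 to 0.454. KO libraries lay below all WT libraries at 3 of the 5 genes (Nsd1, Nsd3 and Setd2), where the background was 28.1% of 10351 genes, and above them at 0, where it was 0.106%. limma called 0 of these 10351 genes (0%, with 2153 at an unadjusted p under 0.05). Their median change of −4.46 percentage points stood beside −1.50 for the 5 genes, whose coverage was also lower to begin with: the median mean level went from 7.44% in WT to 2.51% in KO over all genes and from 2.40 to 0.839% over the 5. Setd2 was lower in the male pair (−1.70) and in the female mean (−4.20), as were Nsd1, Nsd2 and Nsd3, whereas Ash1l was higher in the male pair (0.581) and lower in the female mean (−2.54). Without KO replicate 1, the library that stood apart, the changes were −3.24 at Setd2 and −1.38 at Nsd2, and without WT replicate 2 that of Ash1l was −0.35 and that of Nsd3 −0.83. Nsd2 stood at −1.34 without WT replicate 2 and at −3.27 without KO replicate 2. In data simulated from all genes tested, limma found 13% of changes of 10 percentage points and 66% of changes of 30. These shares are not the power at the 5 genes, whose standard errors were 0.361 to 1.60. Their WT means were at most 3.84%, so a fall of 10 could not occur there.

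The direction depended on how list length was treated. When an equal number of the strongest peaks was taken from each list, the change was 0.46 at Nsd2, 0.06 at Nsd3, 0.53 at Ash1l and 0.07 percentage points at Setd2, and Nsd1, covered in fewer than 2 libraries, was not fitted, while the median of all genes stayed below 0 at −1.96. Relative to genome-wide coverage, Nsd3 and Ash1l differed by −0.01 each, Nsd1 by −0.09, Setd2 by −0.46 and Nsd2 by 0.26 in units of that ratio, with the median of all genes at −0.29. On that scale the groups stood apart at Nsd1 alone, 1 of 5 genes beside 10.3% of all with KO below WT, and 1.33% had KO above. So the lower coverage in KO at Nsd2, Nsd3, Ash1l and Setd2 was seen with all deposited peaks and not with lists of equal length.

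**Figure D5:**
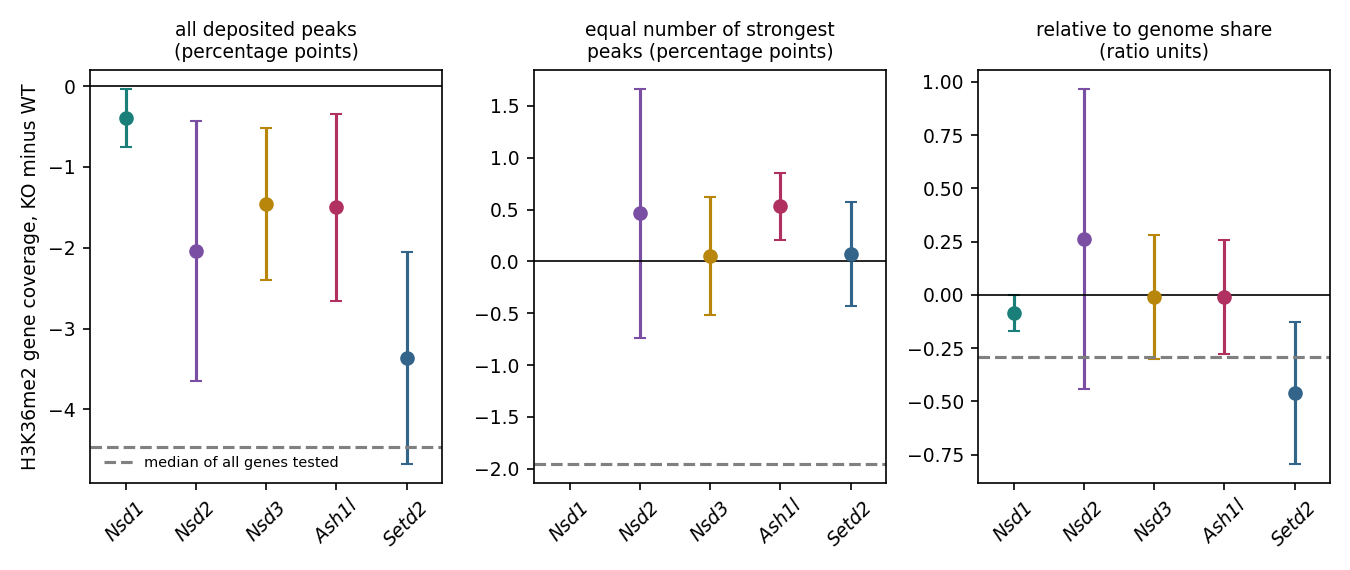
Points are the KO minus WT difference in H3K36me2 gene coverage at each gene (x axis) with its limma standard error, and dashed lines the median over all genes tested, for all deposited peaks (left), lists cut to equal length by peak strength (middle, without Nsd1, covered in fewer than 2 libraries) and coverage relative to genome-wide coverage (right, in units of that ratio). The differences lie below 0 at all 5 genes on the left and at or above 0 at the 4 genes fitted in the middle; the y axes differ between panels.

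H3K36me2 around the TSS positions was sparse and uneven. Coverage of the 2 kb windows around all TSS positions at Nsd1 was 5.32, 11.1 and 3.60% in WT libraries and 5.23, 0 and 5.63% in KO. Nsd1 thus carried H3K36me2 beside its promoter in 5 of 6 libraries although its body was nearly bare. At Nsd2 it was 1.93, 7.18 and 9.14% in WT libraries and 0, 2.63 and 0% in KO, with KO replicate 2 above WT replicate 1. At Setd2 it was 3.65, 4.53 and 0% in WT and 0% in each KO library. At Nsd3 it was 0, 2.01 and 5.13% in WT libraries and 4.39, 1.21 and 0% in KO, and Ash1l had a peak only in replicate 1 of each genotype. No gene passed the test (changes from −5.21 to −0.52 percentage points, limma adjusted p from 0.334 to 0.895), and 0 of 5 had groups that stood apart, beside 23.6% of 10360 genes with KO below WT and 0.29% above. limma called 0 of the 10360 (0%, with 1667 at an unadjusted p under 0.05), with a median change of −7.15 percentage points against −2.73 for the 5 genes. In data simulated from all genes tested it found 0% of changes of 10 percentage points and 32.5% of changes of 30. These shares are not the power at the 5 genes, whose WT means were at most 6.66%.

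At the first TSS alone, no gene of the 5 passed the test, and Nsd2 was the one whose groups did not overlap. The interval chr5:33818168-33819569, just upstream of the Nsd2 TSS, was called in all 3 WT and in no KO library, and coverage of the 2 kb on each side of the first TSS was 12.1, 11.3 and 19.8% in WT and 0% in each KO library. The change was −14.41 percentage points (SE 8.35, limma adjusted p = 0.334). KO lay below WT in this window at 1 of the 5 genes, against 20.6% of 9075 genes tested, and limma called 8 of them (0.0882%, with 1314 at an unadjusted p under 0.05), none of them among the 5. Setd2 had 28.9, 35.9 and 0% in WT and 0% in KO in the same window.

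Contact between KDM2A and H3K36me2 peaks was counted at these promoters and at all bound promoters. In WT, the KDM2A promoter peak shared at least 1 bp with an H3K36me2 peak of the same replicate at Nsd1 and Setd2 in replicates 1 and 2, at Ash1l in replicate 1 and at Nsd3 in replicate 3, and at Nsd2 in no library. Among all coding genes with a KDM2A promoter peak, contact was seen in 33.0, 25.2 and 29.6% in WT and 19.8, 3.75 and 6.58% in KO. The counts of 3, 2 and 1 of 5 genes in WT and 0 in each KO library are given without a test and are to be read beside those shares. Contact was most frequent in WT replicate 1, the WT library with the fewest H3K36me2 bases and the most KDM2A bases, and the part of list length in it was not tested.

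The downstream flanks lay near other genes' TSS positions at Nsd1, Nsd3, Ash1l and Setd2. After Nsd1, near Prelid1 and Mxd3, KDM2A covered 52.6, 44.0 and 45.1% of the 10 kb in WT and 24.3, 4.28 and 60.3% in KO, with the highest and the lowest library both in KO. In the 10 kb after the gene, KDM2A covered 14.6, 7.43 and 7.41% in WT and 4.38, 4.31 and 4.81% in KO at Nsd3, around the TSS of Plpp5. After Ash1l, near Rusc1, it covered 26.4, 27.9 and 27.5% in WT and 2.43, 7.47 and 21.4% in KO. After Setd2, near Nradd and Nbeal2, it covered 15.8, 9.89 and 11.2% in WT and none in KO. KO therefore lay below WT downstream of 3 of the 5 genes, where the background was 16.3% of 6413 genes. Downstream of Nsd2 no library had a KDM2A peak. As coverage of the 2 kb on each side of the first TSS, KDM2A groups overlapped at Nsd3 and Setd2, and KO lay above WT at Ash1l. The difference between flank and promoter was not tested. Upstream, where the nearest TSS was the gene's own, KO lay below WT for H3K36me2 at Nsd2 (19.4, 21.02 and 58.1% in WT, 18.7, 0 and 4.35% in KO) and Setd2 (5.40, 24.5 and 8.86% in WT, 3.31, 0 and 0% in KO), 2 of 5 genes beside 26.8% of 10458. For KDM2A upstream and H3K36me2 downstream, the groups stood apart at none of the 5 genes.

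The other genes of H3K36 methylation were examined by lists that hold no methyltransferase of the 5. For H3K36me2 over the gene, 5 of 7 demethylase genes had enough signal to be tested and 0 passed, with KO below all WT at 3 (Kdm2b, Kdm4b and Kdm8), beside 28.1% of all genes tested, and a median change of −3.80 percentage points beside −4.46 for all genes. Kdm2b, the paralogue of Kdm2a, had 10.5, 11.0 and 8.02% in WT and 4.88, 0.969 and 1.24% in KO (change −7.46, adjusted p = 0.239). Among 6 partner genes, such as Supt6 and Iws1 of transcription elongation, 3 were tested, with 0 calls, 0 with separate groups and a median of −1.85. Of 5 genes for other SET or PR-SET proteins, all were tested, with 0 calls, 0 with separate groups and a median of −1.94. For the KDM2A promoter fold, 4 demethylase, 5 partner and 2 other SET genes could be tested and 0 passed. Morf4l1, which encodes the H3K36 methylation reader MRG15, was the only gene of the lists whose groups stood apart there, at 2.68, 2.95 and 2.69 in WT and 3.19, 2.98 and 3.18 in KO (log2 change 0.23, adjusted p = 0.914), beside 5.2% of all genes with KO above WT and 5.17% below.

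KDM2A over the gene body gave 0 calls in all 3 lists. Beside 15% of all genes with KO below all WT and 1.18% above, KO lay below at 1 gene of each list and above at 1 demethylase and 1 partner gene. KO was below all WT at Kdm4a (6.33, 3.46 and 3.10% in WT, 0, 0 and 1.71% in KO), at Rbbp4 and at Setd5, and above all WT at Kdm4c (0.337, 0.263 and 0.369% in WT, 0.649, 0.545 and 0.560% in KO) and Iws1. For H3K36me2 around TSS positions, KO lay below all WT at 3 of 6 demethylase genes tested, at 3 of 5 partner genes and at 0 of 3 other SET genes, beside 23.6% of all genes tested. Kdm8 had the largest change of these, from 19.6, 37.3 and 26.0% in WT to 0% in each KO library (−27.63 percentage points, adjusted p = 0.270).

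Genes with like profiles were found by the distance between coverage values over the 12 libraries, among coding genes within a factor of 1.5 in length. The nearest were Drg1 and Phip for Nsd1 (distance 1.66 and 2.28 percentage points, against a median of 8.76 over 2200 candidates), and Rapgef6 and Smarca4 for Nsd3 (1.82 and 1.83). Xpo6 and Arih1 were nearest to Ash1l (1.54 and 1.77), Etnk1 and Armc8 to Setd2 (1.79 and 2.26), and Micu3 and Rspry1 to Nsd2 (3.13 and 3.16). Nsd2 thus had the most distant neighbours of the 5. For H3K36me2 the WT order of gene coverage was Setd2, Nsd2, Nsd3, Ash1l and Nsd1, and every neighbouring pair in it overlapped.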

How the data were processed

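ChIP-seq peak lists of KDM2A and H3K36me2 were used, 3 per genotype and antibody (12 lists). Per the authors' methods, the nf-core/chipseq pipeline ran BWA on GRCm38 and then MACS2. The lists are in MACS2's broadPeak format, 1 for each library, and input chromatin was sequenced beside the precipitates. The methods set KDM2A peak signal over input signal, which points to input as the control, without naming the control in the peak calling step. The deposited fold of a peak is a ratio over the local control background and is not normalised between libraries. The deposited −log10 p-value and −log10 q-value were used only to select peaks, and the deposited score was not used. Read filters and the MACS2 version are not given in the sources used here. The lists hold no read counts, so depth and counting error are unknown, and a shallower library can yield fewer peaks. The input libraries were not analysed on their own.

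Genes and TSS positions came from GENCODE M21, and promoter sequence and CpG content from RefSeq GRCm38.p6. Starts were converted to 1-based positions. Coverage was the percent of a gene, or of the 2 kb windows around its TSS positions, under peaks. Values were compared with limma 3.58.1 in R 4.3.3 (lmFit, eBayes with trend, genotype as the only term) over all protein-coding genes with a KDM2A promoter peak in all 6 libraries (fold, log2, centred per library) or coverage in at least 2 libraries; p-values were adjusted by Benjamini and Hochberg's method and called under 0.05. The fits were tested on simulated data with 200 genes changed: limma recovered 44% of log2 changes of 0.5 in KDM2A fold, 49.5% of changes of 10 percentage points in KDM2A gene coverage, 13% of them in H3K36me2 gene coverage and 0% in H3K36me2 promoter and KDM2A first-TSS coverage. Libraries were the unit of replication, and the labels give a sex and a replicate number but no more on whether replicates were separate mice, so p-values measure the spread between these libraries. Deviations of same-numbered WT and KO libraries correlated between −0.081 and 0.082, so no effect shared by same-numbered libraries was seen. This cannot show whether those samples were handled together, and the labels do not say. Python 3.11.15, numpy 2.4.6 and pandas 2.3.3 gave the other values.

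Named genes were the 5 methyltransferase genes and the 2 genes nearest in profile to each. From the lists of demethylase, partner and other SET genes, some of those with separate groups or the largest change were named. Also named were Supt6 as an example of a partner gene, genes near or overlapping the 5, Mir155hg, and the markers Itgam and Ebf1. The members and lists were chosen with earlier results of these data known. Alternatives were a stricter peak threshold, lists of equal length, other windows, gene sets and filters, another scale, the replicate block and leaving out each library. KDM2A coverage at the first TSS was added after the data had been seen.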

Additional observations from a re-analysis of the deposited data

Results flagged for a closer look

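The male pair of libraries and the female pairs (every KO against every WT library of the same sex) pointed in opposite directions in 3 of 20 values of the 5 genes (the KDM2A fold taken on the centred log2 scale) and in 1 of the 5 folds as deposited, and this contrast of sexes was left untested because either genotype had 1 male library. The share of such values over all genes was not counted, so these counts cannot be read as a trait of the 5 genes. H3K36me2 coverage of the Nsd3 TSS windows was 4.39 percentage points higher in KO in the male pair and changed by −5.13 to −0.81 in the female pairs. H3K36me2 coverage of the Ash1l gene differed by 0.581 percentage points in the male pair and by −3.87 to −1.22 in the female pairs. KDM2A coverage of the Setd2 gene differed by 0.411 percentage points in the male pair and by −0.457 to −0.293 in the female pairs. The deposited KDM2A promoter fold of Setd2 differed by 0.567 in the male pair and by −0.185 to −0.0626 in the female pairs, whereas the centred fold did not part the pairs in this way.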

How the results depend on the processing

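No value of the 5 genes passed the threshold under any alternative that could be fitted: of 307 alternative values, 61 were equal to the reported one (55 of them by construction), 211 differed and kept its direction and 35 turned, with adjusted p from 0.148 to 1.00, and the cause of the turns was not tested. Relative to the genome-wide coverage of each library, KDM2A gene coverage differed by 0.61 at Nsd1, 0.35 at Nsd3, 0.077 at Ash1l and 0.72 at Setd2, KDM2A first-TSS coverage by 14.97 at Nsd1, 18.61 at Nsd3 and 25.25 at Setd2, H3K36me2 promoter coverage by 0.43 at Nsd1 and 0.20 at Nsd3, and H3K36me2 gene coverage by 0.26 at Nsd2. In lists cut to equal length by peak strength, H3K36me2 gene coverage differed by 0.46 at Nsd2, 0.055 at Nsd3, 0.53 at Ash1l and 0.072 at Setd2, and the KDM2A promoter fold of Nsd1 by 0.00033. On the percentile rank of the fold Nsd2 and Nsd3 changed by −11.52 and −1.24, without centring by −0.052 and −0.028. H3K36me2 coverage of Nsd3 at the first TSS alone differed by 0.86.

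Leaving out each library in turn gave ranges that crossed 0 for the KDM2A promoter fold of Nsd1 (−0.071 to 0.026), Nsd2 (−0.069 to 0.063) and Nsd3 (−0.034 to 0.095), KDM2A gene coverage of Nsd1 (−1.10 to 0.070) and Setd2 (−0.42 to 0.052), H3K36me2 promoter coverage of Nsd3 (−1.78 to 0.86), and KDM2A first-TSS coverage of Nsd1 (−17.64 to 6.92), Nsd2 (−6.10 to 13.21) and Setd2 (−9.89 to 1.56). The number of genes called moved from 0 to 14 for KDM2A gene coverage over all annotated genes, to 1 on the log2(percent + 1) scale, and to between 0 and 8 without each library in turn (8 without KO replicate 1, 4 without KO replicate 2 and 1 without KO replicate 3). For H3K36me2 promoter coverage it moved to 5 with a −log10 q of at least 2 and to 8 at the first TSS alone, and for H3K36me2 gene coverage to 45 over all annotated genes and to 2 on the log2(percent + 1) scale. With a −log10 q of at least 2, H3K36me2 at the 5 genes could not be fitted because each was covered in fewer than 2 libraries. With the replicate block, 0 genes were called in each of the 5 comparisons. The block cannot move the 25 values of the 5 genes in this balanced design (−0.0070 for the KDM2A fold of Nsd1), and the labels do not say whether same-numbered samples were paired.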

Other observations

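The microRNA locus itself carried KDM2A peaks. Mir155hg, the host transcript of miR-155, had a KDM2A promoter peak in each of the 6 libraries and 27.0, 4.64 and 26.6% of its length covered in WT against 11.1, 5.01 and 4.02% in KO, with KO replicates 1 and 2 above WT replicate 2. The hairpin, at chr16:84714140-84714204, was covered by KDM2A in WT replicate 3 alone, and no H3K36me2 peak covered any part of the Mir155hg gene. Peak lists do not show whether the hairpin was deleted.

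H3K36me2 was far broader at some lineage marker genes than at the methyltransferase genes. Itgam, a myeloid integrin gene, had 38.8, 60.6 and 56.6% of its length covered in WT and 34.9, 22.9 and 24.3% in KO, and Ebf1, a B cell transcription factor gene, 11.6, 16.3 and 12.8% in WT and 7.48, 2.62 and 2.18% in KO. Both genes were looked at after their values had been seen.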
